A study of Mus musculus with 2 samples.

Results

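The 9 genes described here encode the Regnase, Roquin and ZFP36 proteins, which shorten the life of messenger RNAs. The Regnase genes are Zc3h12a, Zc3h12b, Zc3h12c and Zc3h12d, the Roquin genes are Rc3h1 and Rc3h2, and the ZFP36 genes are Zfp36, Zfp36l1 and Zfp36l2. Their islands, stretches of clustered reads from a binding profile of the transcription factor TCF-1, were selected by position: an island counts if it overlaps by at least 1 bp the RefSeq gene body or the 100 kb on either side. This gave 61 of the 19531 islands in the deposited table, at 9 of 21887 protein-coding genes. Islands enter that table because a caller found clustered peak-library reads, and the genes were chosen with earlier results from the table known, so read counts and folds are given as description, with no test.

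The cells were lymphoid tissue inducer (LTi) cells of C57BL/6 mice, innate lymphoid cells sorted as lineage-negative, CD127-positive and CCR6-positive and lacking KLRG1, NK1.1 and NKp46. One library came from Tcf7fl/fl-VavCre cells of the small intestinal lamina propria, in which Cre driven by Vav sequences deletes Tcf7, the gene of TCF-1, in blood-forming cells generally. The other came from Tcf7+/+ cells of Peyer's patches. Chromatin immunocleavage (ChIC-seq) with an anti-TCF-1 antibody tied to micrococcal nuclease was run on 500 fixed cells per library, and there was 1 library per group. Genotype and tissue cannot be told apart, and no difference has a replicate check.

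For each island the table counts reads in what the caller names a peak and a control library, and its header ties neither to a sample. Values below carry those 2 names, and nothing is said of which genotype was higher. The islands held 483771 peak-library and 189291 control-library reads, and the full depth of each library is unknown. Fold and false discovery rate (FDR) of single islands are the authors' own values. A pooled fold sums the peak-library reads of several islands, sums their control-library reads, and divides after multiplying the control sum by 2.00, the factor in the deposited folds, with an exact binomial (Clopper-Pearson) 95% interval that covers counting error only. Islands in the body or within 10 kb, which 54.7% of protein-coding genes have, were also counted at marker genes of several cell types. Islands at a gene are not expression, so no cell type is named from these counts. At an FDR of 0.05 or less 62.6% of nuclear islands were called, and 40.3% of protein-coding genes had a called one there. An island near several markers counts for each of those genes. The 8 LTi markers had 40 islands, 29 of them called, and 8 of 8 genes had a called one. Of 5 B cell markers 5 had an island and 4 a called one, with 4 of 11 islands called, and of 5 T cell markers 4 had an island and 3 a called one, with 2 of 5 islands called. Of 5 myeloid markers 2 had a called island, Cd14 and Spi1, and of 5 epithelial markers 1 did, Cdh1.

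These proteins act on the untranslated tails of transcripts. Regnase-1, the product of Zc3h12a, is an endonuclease that cuts stem-loops in transcripts of inflammatory cytokines. Roquin-1 and Roquin-2, encoded by Rc3h1 and Rc3h2, bind stem-loops too and bring in the CCR4-NOT deadenylase. ZFP36, also called tristetraprolin, and its relatives ZFP36L1 and ZFP36L2 bind AU-rich elements and recruit the same deadenylase. In lymphocytes the first members of each family are known as brakes on activation.

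Every one of the 9 genes had at least 1 island within 100 kb, where 75.6% of all protein-coding genes did. An island overlapped the body of 6 of the 9, against 45.7% of protein-coding genes, and lay in the body or within 10 kb of 7, against 54.7%. Zc3h12b and Zc3h12c had none in the body or within 10 kb. Of the 61 islands 11 overlapped a body, 8 lay outside it but within 10 kb, and 42 lay at 10 to 100 kb. Zfp36 had 11 islands, Zfp36l1 10, Zc3h12a and Zfp36l2 9 each, Zc3h12d 8, Rc3h2 6, Rc3h1 5, Zc3h12b 2 and Zc3h12c 1. The median protein-coding gene had 3 islands within 100 kb, with quartiles of 1 and 7.

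**Figure D1:**
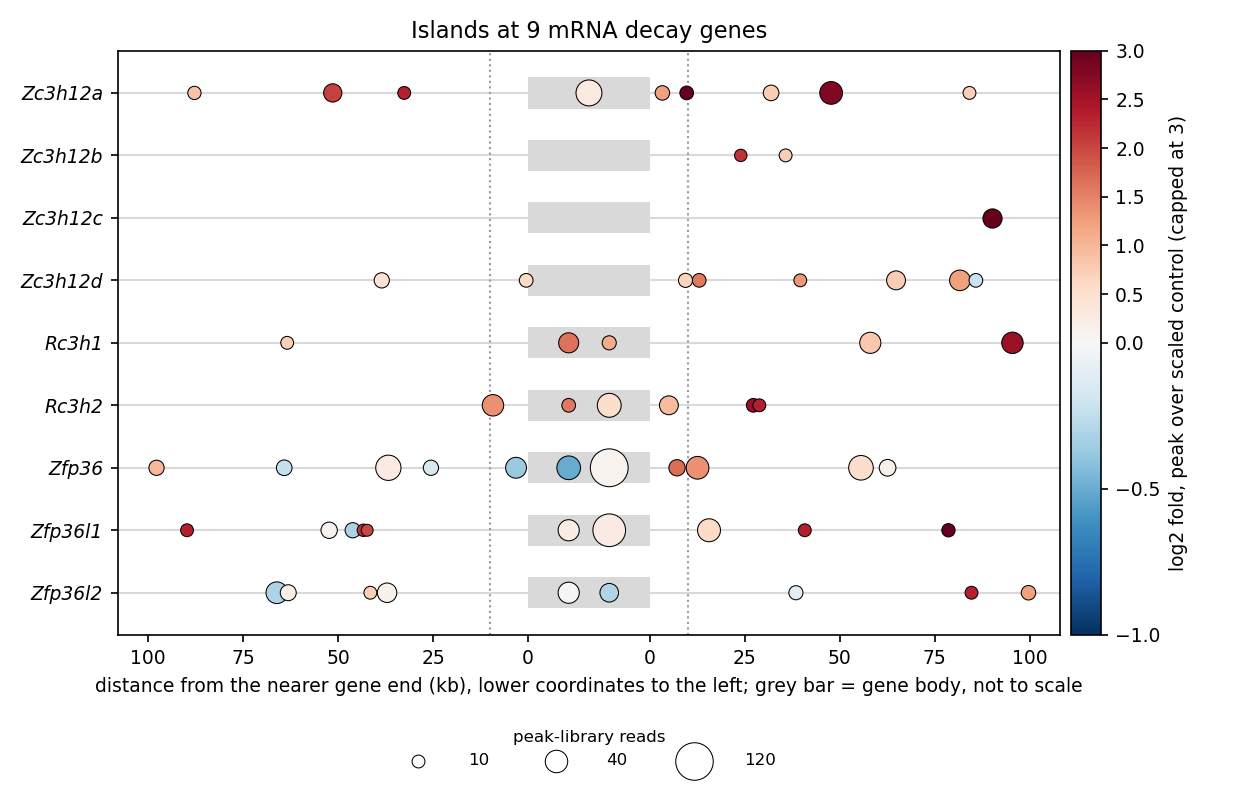
Islands at the 9 genes, one row per gene, by distance in kb from the nearer gene end, with the gene body as a grey bar that is not to scale and its islands drawn inside it in genome order at even spacing. Circle area grows with peak-library reads and colour gives the authors' log2 fold, capped at 3, with 10 kb marked by dotted lines. The 3 ZFP36 genes carry pale or blue islands over their bodies, and the bars of Zc3h12b, Zc3h12c and Zc3h12d are empty.

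The body islands were spread unevenly over the gene lengths. The 3 ZFP36 genes are short, with bodies of 2.4 kb for Zfp36, 5.3 kb for Zfp36l1 and 4.0 kb for Zfp36l2, yet each had 2 body islands. The 4 Regnase bodies together held 1 island, at Zc3h12a, although Zc3h12b spans 221.1 kb. Of the 11 body islands 6 had their midpoint inside the gene, and the other 5, all at ZFP36 genes, reached past a gene end with their midpoint outside. Over the member bodies there were 23.7 islands per Mb, against 14.1 per Mb over all protein-coding bodies. Any overlap of 1 bp counts here, which raises the density of short genes. The ZFP36 bodies had 512 islands per Mb, the Roquin bodies 32.2 and the Regnase bodies 3.05. With 100 kb on either side the densities were 26.9 and 9.94 per Mb.

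Start sites were examined next, and 5 of the 61 islands lay across a promoter window of the 9 genes. RefSeq promoter windows, 250 bases before to 50 after a start on GRCm38.p6 (the mm10 build), were found for 8 of the 9 genes. Zfp36l2 had no window and Zc3h12c had 2. An island lay across 5 of these 9 windows, against 38.2% of 21263 windows of protein-coding genes. The 5 were those of Zc3h12a, Rc3h1, Rc3h2, Zfp36 and Zfp36l1. The window of Zc3h12d lay 420 bp from its nearest island, the outer and inner windows of Zc3h12c 90145 and 109188 bp away, and that of Zc3h12b 244874 bp away. The 5 windows with an island had G and C contents of 65.7% for Zc3h12a, 73.0% for Rc3h1, 64.0% for Rc3h2, 63.7% for Zfp36 and 52.0% for Zfp36l1. Over all windows with an island the median was 61.7%, and over those without it was 52.0%.

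The windows were searched for the core of the TCF motif, written CTTTGA or CTTTGT, on both strands (the reverse complements are TCAAAG and ACAAAG), and no matches in these windows overlapped. None of the 5 windows with an island held a match. The Zc3h12d window held 2, at bases -198 and -135 from the start, and the inner Zc3h12c window held 1, at base -238. Of all protein-coding windows 28.3% held at least 1 match, 21.9% of those with an island and 32.2% of those without. A match is only a run of letters, and islands are wider than these windows, so the rest of each island was not searched. Printed here are the 2 windows with matches, in capitals, and for contrast those of Rc3h1, whose island had the highest fold of the 5, and Zfp36, whose island had the most reads, all from RefSeq on the strand of the gene.
Zc3h12d, chr10:7832220-7832519, plus strand: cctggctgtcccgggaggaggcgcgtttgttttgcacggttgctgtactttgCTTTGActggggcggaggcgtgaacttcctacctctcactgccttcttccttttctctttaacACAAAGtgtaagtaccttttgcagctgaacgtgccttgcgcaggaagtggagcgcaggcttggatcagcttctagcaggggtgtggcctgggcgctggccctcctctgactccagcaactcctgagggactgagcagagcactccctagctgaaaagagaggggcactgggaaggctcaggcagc
Zc3h12c, inner window, chr9:52149314-52149613, minus strand: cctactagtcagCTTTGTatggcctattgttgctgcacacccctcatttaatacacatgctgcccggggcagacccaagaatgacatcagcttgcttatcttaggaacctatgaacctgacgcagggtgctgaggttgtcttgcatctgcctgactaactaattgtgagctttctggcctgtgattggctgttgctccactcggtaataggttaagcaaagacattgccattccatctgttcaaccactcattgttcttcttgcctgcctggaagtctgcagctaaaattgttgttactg
Rc3h1, chr1:160906161-160906460, plus strand: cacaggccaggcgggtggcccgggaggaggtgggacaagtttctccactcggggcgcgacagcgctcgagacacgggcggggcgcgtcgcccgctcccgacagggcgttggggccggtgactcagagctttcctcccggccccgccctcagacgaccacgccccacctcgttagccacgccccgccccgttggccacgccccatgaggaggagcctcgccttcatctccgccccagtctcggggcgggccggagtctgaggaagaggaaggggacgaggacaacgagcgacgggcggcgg
Zfp36, chr7:28379179-28379478, minus strand: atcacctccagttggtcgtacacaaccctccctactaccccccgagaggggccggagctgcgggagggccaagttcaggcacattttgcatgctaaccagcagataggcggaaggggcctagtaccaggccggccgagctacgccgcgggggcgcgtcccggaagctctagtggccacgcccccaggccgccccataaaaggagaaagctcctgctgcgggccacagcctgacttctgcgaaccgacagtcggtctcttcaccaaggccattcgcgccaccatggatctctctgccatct

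The 11 body islands held 510 peak-library and 224 control-library reads, a pooled fold of 1.14 (0.973 to 1.34). The 8 islands within 10 kb held 167 and 50 reads, a pooled fold of 1.67 (1.21 to 2.34), and the 42 islands at 10 to 100 kb held 841 and 246 reads, 1.71 (1.48 to 1.98). The order of bodies and 10 kb flanks depends on how an island is placed. By its midpoint, or by at least 50% overlap, 6 islands fell in bodies and pooled to 1.50 (1.13 to 2.03), and the 11 then within 10 kb pooled to 1.12 (0.947 to 1.32). All nuclear islands under 200 peak-library reads stood at 1.62 (1.61 to 1.63), and those across a protein-coding promoter at 1.42 (1.40 to 1.43). The median fold was 1.70 over the 61 islands and 1.19 over the 11 body islands, against 1.84 over all nuclear islands. Leaving out Zfp36, the gene with the most reads, gave 1.27 for the bodies and 2.28 within 10 kb.

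At the caller's FDR of 0.05 or less, 35 of the 61 islands were called, against 62.6% of nuclear islands. By distance, 4 of 11 body islands, 5 of 8 within 10 kb and 26 of 42 farther out were called. Among islands across a promoter window 2 of 5 were called at these genes, against 52.4% of such islands in the table. Zfp36l2, which has no window, is not among the 5, and neither of the islands over its 2 ends was called. Called body islands were found at 2 of the 9 genes, Rc3h1 and Rc3h2, and 30.1% of protein-coding genes had one. The caller takes the control count as exact. The interval of the fold that counts the error of both libraries lay above 1 for 10 of the 61 islands, all among the 35, and for 15.1% of nuclear islands.

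A fold below 1 was found for 9 of the 61 islands, against 10.2% in the table, and 8 of the 9 belonged to ZFP36 genes. With table totals set equal in place of the caller's factor, 19 of the 61 lay below 1 and 25.9% of nuclear islands did, and without scaling 0 and 0.133% did. The totals set equal, 483771 and 189291 reads, include the few islands with 200 or more peak-library reads. The 19513 nuclear islands under 200 held 386196 and 119307 reads, and a factor from these alone was not tried. Which side of 1 a fold lies on therefore depends on the scaling, while the order of folds among islands does not.

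**Figure D2:**
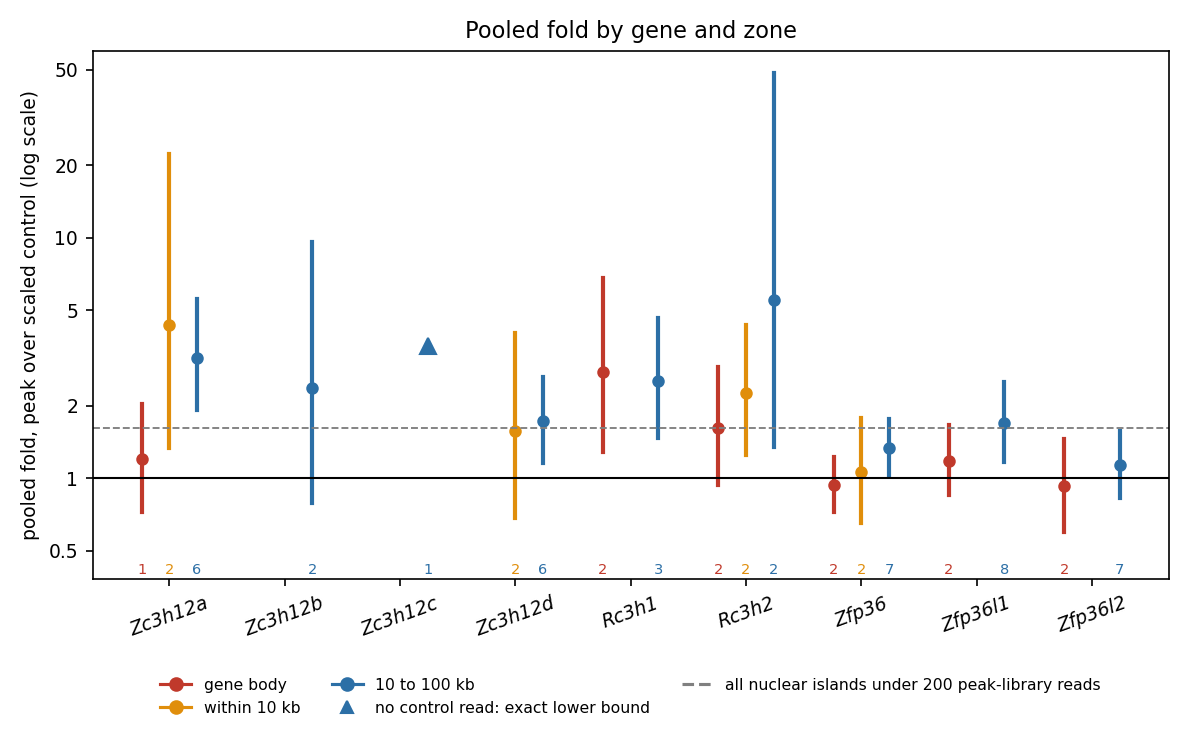
Pooled fold of peak-library over scaled control-library reads (log scale) for each gene in its 3 zones, with exact 95% intervals and the number of islands under each point. The body points of the ZFP36 genes lie at 0.940, 1.18 and 0.926, below the 1.62 of all nuclear islands under 200 peak-library reads (dashed), while Rc3h1 lies at 2.75; the triangle for Zc3h12c is a lower bound.

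The pooled folds of Roquin and Regnase lay close together, with intervals that overlap widely, and that of ZFP36 lay below both. Over all zones the 11 Roquin islands stood at 2.31 (1.74 to 3.13), the 20 Regnase islands at 2.15 (1.70 to 2.74) and the 30 ZFP36 islands at 1.17 (1.03 to 1.32). The caller called 10 of the 11 Roquin, 13 of the 20 Regnase and 12 of the 30 ZFP36 islands. These intervals leave out the spread between islands and genes.

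Zc3h12a, on chromosome 4 at 125118414 to 125127881, had 1 body island, at 125123401 to 125128200, which reaches across the start of the gene. It held 55 peak-library and 23 control-library reads, a fold of 1.20 (0.724 to 2.04), and was not called. The 8 other islands of the gene, on both sides, all had higher folds than this. An island 9.7 kb upstream held 12 and 0 reads. With a floor of 3 control reads in place of 0 its fold was 2.00, and its exact lower bound was 1.39. Another, 3.3 kb upstream, held 14 and 3 reads. The strongest of the gene lay 47.7 kb upstream, at 125175601 to 125178400, with 41 and 3 reads and a fold of 6.84 (2.18 to 34.6), 109th of the whole table by FDR. No other protein-coding body lies there, and Zc3h12a is the nearest protein-coding gene, but the noncoding genes Gm32611 and Gm40245 overlap it. The 6 islands at 10 to 100 kb pooled to 3.17 (1.92 to 5.54).

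Zc3h12c encodes Regnase-3, a relative of Regnase-1 studied in macrophages, and lies on chromosome 9 at 52109569 to 52168730. Its 1 island stood out in the whole table. At 52258801 to 52260600, 90.1 kb upstream, it held 28 peak-library reads and 0 control-library reads. The authors' deposited table gives it a fold of 56.1 and an FDR of 2.43e-36, rank 1 of 19531 by both. That fold rests on a stand-in of 0.25 control reads and is not a bound. With a floor of 3 control reads in place of 0 the fold was 4.67, which is not a bound either. The exact lower bound was 3.56. Of the 1112 islands without a control read the median held 11 peak-library reads, and none held more than these 28. No annotated gene, coding or not, overlaps the island, and Zc3h12c is its nearest protein-coding gene. The next island outward lay 163.0 kb from the gene, with 11 and 2 reads.

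Zc3h12d and Zc3h12b had no body island and no called island within 10 kb. Zc3h12d, whose product Regnase-4 is also called TFL, lies on chromosome 10 at 7832323 to 7870397. An island 0.5 kb upstream held 12 and 4 reads, a fold of 1.50 (0.455 to 6.39), and one 9.4 kb downstream held 13 and 4, a fold of 1.63 (0.503 to 6.85). Neither was called. The highest fold among its islands with at least 15 peak-library reads was 2.36 (1.03 to 6.32), from 33 and 7 reads, 81.6 kb downstream and across the start of Tab2, which encodes an adaptor of the TAK1 kinase. In all, 4 of the 6 islands at 10 to 100 kb lay over Tab2. Zc3h12b on chromosome X, at 95711583 to 95932656, had 2 islands, both downstream. The one over Las1l, 23.9 kb away, held 9 and 1 reads and was called, and the one 35.7 kb away held 10 and 3 and was not. The next island outward lay 731.8 kb from the gene.

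Rc3h1, on chromosome 1 at 160906411 to 160974976, had the highest body fold. The island across its start, at 160905401 to 160908000, held 31 and 5 reads, a fold of 3.10 (1.20 to 10.2) and an FDR of 1.92e-07 in the authors' deposited table. It was the only body island of the 9 genes with an interval above 1. A second island 1.4 kb farther into the gene held 13 and 3 reads, a fold of 2.17 (0.596 to 11.9). The 3 remaining islands lay at or beyond 58.0 kb and pooled to 2.54 (1.47 to 4.64).

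Rc3h2, on chromosome 2 at 37368861 to 37424370, had every one of its 6 islands called, as was the single Zc3h12c island and not all islands of any other of the 9 genes. Across its start, the island at 37421201 to 37424000 held 46 and 16 reads, a fold of 1.44 (0.800 to 2.72). Inside the gene, the island at 37418401 to 37420000 held 12 and 2 reads, a fold of 3.00 (0.669 to 27.6). Both islands within 10 kb lay across starts of neighbours. That of Pdcl, 9.3 kb downstream, held 36 and 7 reads, a fold of 2.58 (1.13 to 6.86), and that of Zbtb6, 5.0 kb upstream, held 27 and 7, a fold of 1.93 (0.821 to 5.25). A pair over Rabgap1 held 12 and 1 reads at 27.2 kb and 10 and 1 reads at 28.8 kb. With 1 control read each, their intervals start at 0.889 and 0.712.

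Zfp36, on chromosome 7 at 28376784 to 28379228, carried the most reads of the 9 genes and low folds. The island across its start, at 28378401 to 28384200, held 122 peak-library and 57 control-library reads, ranks 31 and 35 of the table. Its fold was 1.07 (0.777 to 1.49). Per kb of island that was 21.0 and 9.83 reads, against 11.9 and 1.92 reads at the start of Rc3h1. The island over the other end held 45 and 32 reads, a fold of 0.704 (0.438 to 1.15), the lowest of the 61. Zfp36 lies in a gene-dense stretch with 12 other protein-coding genes within 100 kb. An island across the start of Plekhg2, 3.2 kb downstream, held 34 and 22 reads, a fold of 0.774 (0.440 to 1.39). The 2 nearest islands upstream had higher folds, 3.17 (0.934 to 16.7) from 19 and 3 reads over Med29, and 2.57 (1.19 to 6.34) from 41 and 8 reads across the starts of Med29 and Paf1, which encode subunits of the Mediator and PAF complexes of transcription.

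Zfp36l1 and Zfp36l2 repeated the low body folds. At Zfp36l1, on chromosome 12 at 80107760 to 80113013, the island across the start held 90 and 38 reads, a fold of 1.19 (0.803 to 1.78), and the island over the rest of the gene held 35 and 15, a fold of 1.17 (0.622 to 2.30). At Zfp36l2, on chromosome 17 at 84183924 to 84187947, the islands over the lower and the higher end held 35 and 17 reads and 26 and 16 reads, folds of 1.03 (0.562 to 1.96) and 0.814 (0.420 to 1.62). None of the 6 ZFP36 body islands was called, and their pooled fold was 1.01 (0.840 to 1.22). At 10 to 100 kb, 6 of 8 Zfp36l1 islands were called, with a pooled fold of 1.69 (1.16 to 2.51). One of them, over Actn1, held 11 and 0 reads. With the floor of 3 in place of 0 its fold was 1.84, and its exact lower bound was 1.26. The highest fold among those with at least 15 peak-library reads was 1.50 (0.804 to 2.98), from 42 and 14 reads 15.6 kb upstream. Of the 7 Zfp36l2 islands in that zone 2 were called, with a pooled fold of 1.13 (0.824 to 1.57), and the highest with at least 15 peak-library reads was 1.13 (0.466 to 2.99), from 18 and 8 reads 63.1 kb away. Whether the pooled folds of these 2 genes differ was not tested.

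**Figure D3:**
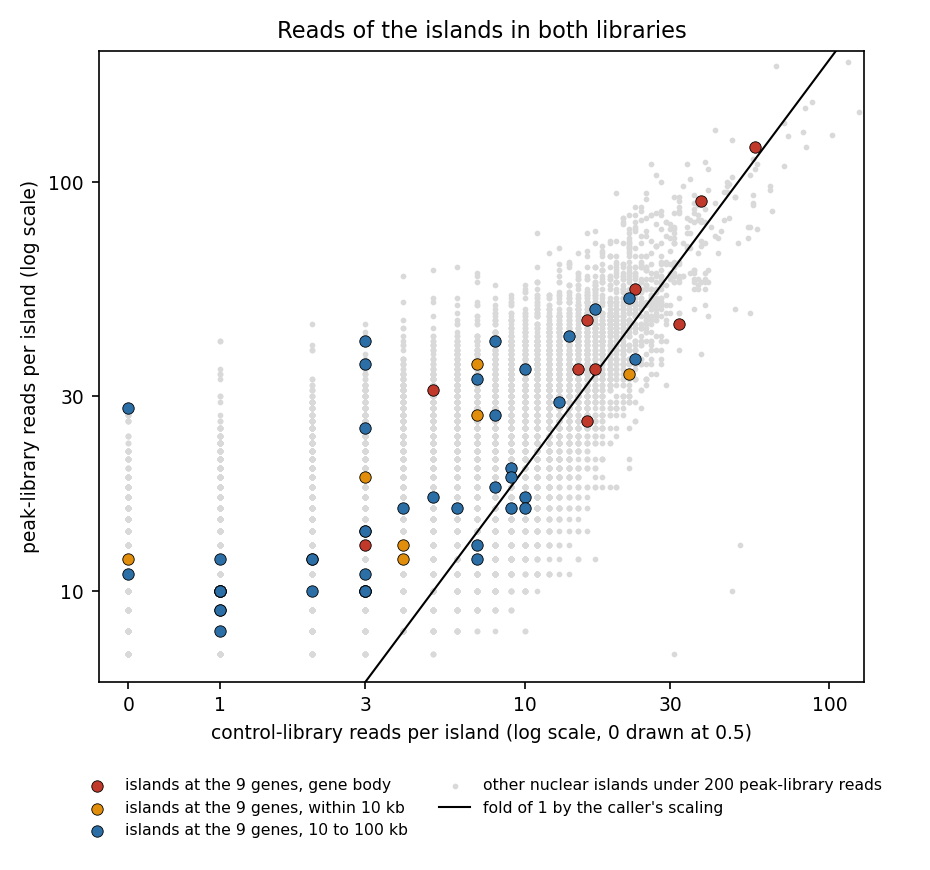
Peak-library against control-library reads of each island, on log scales with 0 control reads drawn at 0.5, for the islands at the 9 genes by zone and for the other nuclear islands under 200 peak-library reads (grey); the line marks a fold of 1. Body islands crowd the upper right, 8 of 11 with 15 or more control-library reads, and the Zc3h12c island tops the column at 0 with 28 peak-library reads.

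Low body folds went together with many control-library reads. A median body island held 35 peak-library and 16 control-library reads and was 2800 bp wide, against 16, 4 and 1400 bp over nuclear islands under 200 peak-library reads. In 8 of the 11 body islands, 1 of the 8 within 10 kb and 3 of the 42 farther out there were 15 or more control-library reads, as in 7.78% of nuclear islands. The control count is also the divisor of the fold, so islands grouped by it differ in fold by construction, and what the count stands for was not tested. Within such groups the 9 genes lay close to the table. Islands with 15 or more control-library reads pooled to 1.05 (0.915 to 1.21) at the 9 genes and 1.07 (1.06 to 1.09) in the table. With 5 to 14 the values were 1.46 (1.22 to 1.76) and 1.39 (1.38 to 1.41), and with 1 to 4 they were 2.99 (2.28 to 3.97) and 2.82 (2.78 to 2.86).

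**Figure D4:**
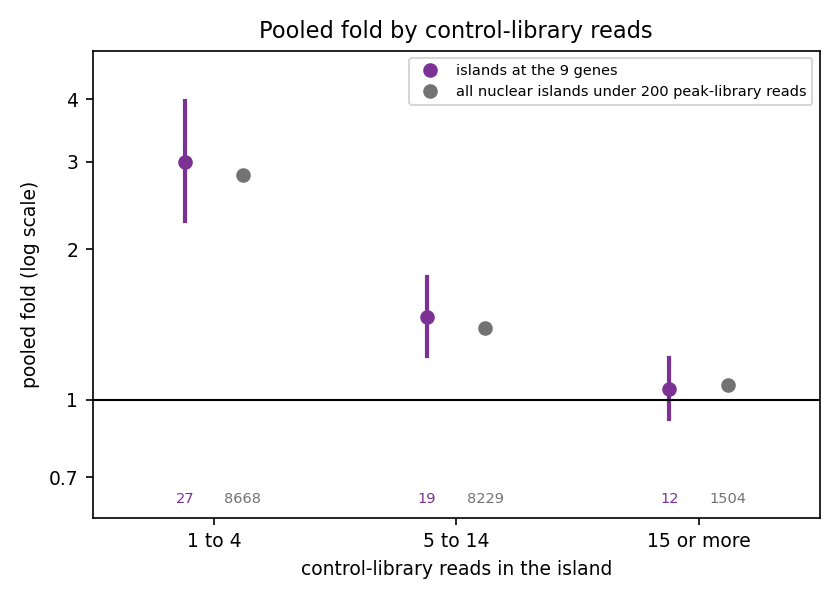
Pooled fold (log scale) with exact 95% intervals for islands at the 9 genes and for all nuclear islands under 200 peak-library reads, by the number of control-library reads in the island, with the number of islands below each point. The 3 intervals at the 9 genes span the table's values of 2.82, 1.39 and 1.07.

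Many distant islands belong as much to other genes. Of the 42 islands at 10 to 100 kb 24 overlapped another protein-coding body and 13 lay across the promoter window of another protein-coding gene, and for 14 of the 42 the named decay gene was the nearest protein-coding gene. Those over another body pooled to 1.77 (1.47 to 2.14) and those over none to 1.63 (1.31 to 2.06). On either side of the 100 kb edge of the rule the islands of a gene could differ. At Zfp36l2 the last island inside, at 99.7 kb, had a fold of 2.34, and the first outside, at 106.1 kb, 1.00. At Zc3h12d the folds were 0.859 at 85.8 kb and 1.50 at 105.3 kb. At Zc3h12a the last island inside, at 87.8 kb, held 11 and 3 reads, and the first outside, at 102.5 kb, held 11 and 0.

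The partners of these proteins often had islands in the body or within 10 kb, where 54.7% of protein-coding genes have any and 40.3% have a called one. Of the 9 decay genes themselves 4 had a called one there, Zc3h12a, Rc3h1, Rc3h2 and Zfp36. That of Zfp36 lay 7.2 kb upstream, over Med29, and no body island of Zfp36 or Zc3h12a was called. Among 19 deadenylation genes, which include the CCR4-NOT subunits that Roquin and ZFP36 recruit, 19 had an island and 13 a called one, with a pooled fold of 1.32 (1.18 to 1.47). Cnot2, a CCR4-NOT subunit, led with 5 called islands of 10 and a pooled fold of 1.56 (1.15 to 2.15), followed by 3 each at Cnot10, with 2.70 (1.36 to 5.96), and Pan3, with 2.79 (1.23 to 7.39). Of 12 decapping and exonuclease genes 12 had an island and 5 a called one, with 2 called islands each at Ddx6, Lsm14a and Xrn1. Of 14 exosome genes 12 had an island and 6 a called one, and Exosc9 had 2. Of 10 genes of nonsense-mediated decay 10 had an island and 4 a called one, and the endonuclease gene Smg6 had 8 called islands of 11, with a pooled fold of 1.97 (1.42 to 2.78). Of 11 other RNA-binding proteins of transcript tails 11 had an island and 7 a called one, led by Ago2 with 6 called islands of 9 and a pooled fold of 1.84 (1.35 to 2.53), and with 3 each at Pum2 and Tnrc6b.

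Proteins that act on the 3 families, and transcripts they are known or proposed to act on, were counted the same way. Of 11 regulators, such as the protease gene Malt1 and the kinase gene Mapkapk2, 10 had an island and 9 a called one, with a pooled fold of 1.52 (1.32 to 1.75). Mapkapk2, whose product phosphorylates ZFP36, had 7 called islands of 9 and a pooled fold of 1.95 (1.39 to 2.78), and Mapk14 and N4bp1 had 3 each. Irak1 had no island. Of 24 genes of listed target transcripts 15 had an island and 12 a called one, with a pooled fold of 1.51 (1.33 to 1.72). The repressor gene Bcl6 had 4 called islands of 5, a pooled fold of 1.86 (1.26 to 2.80), and the costimulator gene Icos and the cytokine gene Tnf had 3 each, with 1.74 (0.999 to 3.18) and 1.48 (1.15 to 1.92). Among the interleukin genes listed, Il2, Il17a and Il23a had islands, all called and all within 10 kb but outside the gene body. Il2 had 21 and 2 reads, a pooled fold of 5.26 (1.29 to 46.3), and Il17a 16 and 0, with an exact lower bound of 1.93. Il23a had 46 and 16 reads, a fold of 1.44 (0.800 to 2.72). Il6, Il12b, Il1b and Il10 had none. The 7 lists had median folds of 1.34 to 1.72, below the 1.84 of all nuclear islands. That set is unlike the lists, since it also holds islands away from genes. Under 200 peak-library reads, islands over no protein-coding body or promoter had a median of 2.17, and those across a protein-coding promoter 1.50. The listed genes were not matched for length or gene density, and nothing particular to a list follows from its counts.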

How the data were processed

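ChIC-seq with an anti-TCF-1 antibody was run on 1 library per group. The submitters' processing notes name Bowtie2 2.4.2, SICER 2.0 and the mm10 build. Window, gap and duplicate settings: not given in the sources used here. The authors deposited unscaled read counts per island in 2 columns, peak and control, whose headers name no sample. The deposited ratio (fold) equals peak reads divided by 2.00 times the control reads, and the deposited p-value and FDR are the authors' own.

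Coordinates are counted from 1. Genes and promoter windows came from RefSeq on GRCm38.p6; no genome sequence was used. Pooled folds carry exact conditional binomial intervals (Python 3.11.15, scipy 1.17.1), which cover counting error only. Zone assignment and intervals were tested on simulated data. The 9 genes, gene lists and named-island rule (every body island, and per zone the highest fold among islands with at least 15 peak-library reads) were chosen with earlier results of these data known. A few islands and genes that these rules name are not reported here. With 1 library per group no test between conditions was made. Alternatives changed the overlap rule, flank, neighbours, read minimum, FDR and scaling.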

Additional observations from a re-analysis of the deposited data

How the results depend on the processing

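Counts and levels moved under several settings. Requiring at least 50% of an island, or its midpoint, inside a zone left 6 body islands, with a pooled fold of 1.50 for bodies and 1.12 within 10 kb, because islands over the short ZFP36 genes reach past their ends. A 50 kb flank left 21 far islands (those at 10 to 100 kb), 13 of them called. Islands over no other protein-coding body numbered 4 within 10 kb (2 called) and 18 far (9 called). With at least 20 peak-library reads 2 body islands were called, 3 remained within 10 kb (2 called) and 14 far (10 called). At an FDR of 1e-05 or less 1 body island, 2 within 10 kb and 7 far were called. Called islands alone pooled to 1.96 over bodies, 2.70 within 10 kb and 2.66 far, which selecting on the fold inflates. Equal totals, which shift every log2 fold by -0.36, gave 0.891 over bodies and 1.34 far. That shift depends in part on the few islands with 200 or more peak-library reads, which the totals include. No scaling, a shift of 1.00, gave 2.28, 3.34 and 3.42 for bodies, 10 kb and far. Leaving out each gene in turn, an alternative added after the data were seen, gave 1.08 to 1.27, 1.45 to 2.28 and 1.60 to 1.89. Islands across no promoter window of the 9 genes, also added after the data were seen, gave 0.978 over bodies. Zfp36l2 has no such window, so its 2 body islands, which cover both gene ends, stayed in. The pooled fold within 10 kb, 1.67 (1.21 to 2.34) as reported, no longer had an interval above 1 with equal totals, at 1.31 (0.948 to 1.83), with at least 20 reads, at 1.35 (0.912 to 2.04), or without Rc3h2, at 1.45 (0.982 to 2.18). Over bodies and 10 kb together, Zfp36, at 0.966 as reported, came to 1.93 (1.53 to 2.44) without scaling. With equal totals Zfp36 came to 0.755, and its interval lay wholly below 1, ending at 0.955. Over called islands it came to 3.17 (0.934 to 16.7), but that is 1 island, with 19 and 3 reads, over Med29. Zfp36l2, at 0.926, came to 1.85 without scaling, and Zfp36l1, at 1.18, to 0.923 with equal totals. Each of these 3 genes thus changed its side of 1 under some setting, although none of the 3 intervals at the reported settings excludes 1. No paired analysis was possible because each group has 1 library and the columns name no sample. With a median of 4 control-library reads per nuclear island, depth limits most single folds.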

Other observations

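Over the whole table, protein-coding promoters with an island were richer in CpG dinucleotides than those without. The 8114 windows with an island had a median of 22 CpG per 300 bases (quartiles 16 and 30), and the 13149 without had 6 (2 and 16). Among the 9 windows of the decay genes the count ran from 41 at the outer Zc3h12c window, which had no island, to 3 at the inner one, with 36 at Rc3h1, 27 at Zc3h12a, 24 at Rc3h2, 21 at Zfp36, 20 at Zc3h12b, 15 at Zfp36l1 and 10 at Zc3h12d.

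Folds also varied with position over the table. Among nuclear islands under 200 peak-library reads, the 6329 across a protein-coding promoter pooled to 1.42 (1.40 to 1.43), the 8394 over a body but no promoter to 1.78 (1.76 to 1.80), and the 4790 over neither to 1.83 (1.80 to 1.85).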
